A study of Drosophila melanogaster with 2 samples.

Results

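The transfer RNA (tRNA) genes of Drosophila melanogaster were examined in peak lists from chromatin immunoprecipitation followed by sequencing (ChIP-seq) of CG43347, a protein labelled with its older name CG9817. The members were all 290 genes of biotype tRNA on the major chromosome arms, out of 18164 annotated genes other than transposable elements. They were picked by their annotated biotype and not by a measured value, though with earlier results of these data known. Both samples were whole embryos 10 to 24 h old from a transgenic line that stably expresses the protein with green fluorescent protein (GFP) at its C-terminus, and the precipitation used an antibody against GFP. They form 1 group, biological replicates 1 and 3, so no conditions were compared, and no embryos without the tagged protein were analysed here. A transgenic copy is present in every sample, and whole embryos mix all tissues. Peaks were read from 4 deposited lists: 30000 peaks for each replicate, 30000 for both replicates pooled, and 5038 thresholded by the irreproducible discovery rate (IDR). The number of reads behind them is unknown here.

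A tRNA gene is a short unit transcribed by RNA polymerase III from promoter elements that lie inside the transcribed sequence, the A box and the B box. Transcription factor IIIC binds these boxes and brings in factor IIIB and the polymerase. Eukaryotic genomes hold many copies of most tRNA genes, often in clusters, and in budding yeast and in human cells some of them act as chromatin boundaries. The fly genes analysed here were 71 to 186 bp long, with a median of 73 bp. The core of the B box, searched as GTTCNANNC on the strand of the gene, was present in 271 of 290 (93.4%). An identical copy elsewhere among the 290 was carried by 238 genes (82.1%), and the 290 genes held 95 distinct sequences. Short reads that fall entirely inside such copies cannot be placed at 1 of them, and how they were treated is not given in the sources used here.

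Sequences that show where summits lay relative to tRNA genes are printed here. Each of the first 3 runs between the peak summit and the far end of the nearest tRNA gene, on the strand of the gene, in release 6 (dm6), with the tRNA gene in capitals. They are tRNA:Asp-GTC-1-5 (chr2L:8541761-8542046, plus strand, summit at the 3' end of the stretch), tRNA:Leu-TAA-2-1 (chr3R:24112769-24113047, plus strand) and tRNA:Cys-GCA-1-3 (chr3L:3096218-3096440, plus strand), both with the summit at the 5' end. The fourth reaches 100 bp to either side of the strongest IDR-thresholded summit near any tRNA gene, next to tRNA:Tyr-GTA-1-8 (chr3R:8669288-8669488, plus strand), with CGATA in capitals. The last is the whole gene tRNA:Ser-AGA-2-4 (chr2L:3173003-3173084, minus strand) with its B box core in capitals. In replicate 1 it held a summit, at base 9 of the gene.
tRNA:Asp-GTC-1-5: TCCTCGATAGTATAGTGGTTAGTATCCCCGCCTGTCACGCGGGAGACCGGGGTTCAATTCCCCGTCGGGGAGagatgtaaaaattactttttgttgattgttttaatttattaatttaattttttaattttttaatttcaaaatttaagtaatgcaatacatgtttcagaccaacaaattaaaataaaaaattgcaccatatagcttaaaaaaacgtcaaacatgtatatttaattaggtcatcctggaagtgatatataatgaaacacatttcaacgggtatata
tRNA:Leu-TAA-2-1: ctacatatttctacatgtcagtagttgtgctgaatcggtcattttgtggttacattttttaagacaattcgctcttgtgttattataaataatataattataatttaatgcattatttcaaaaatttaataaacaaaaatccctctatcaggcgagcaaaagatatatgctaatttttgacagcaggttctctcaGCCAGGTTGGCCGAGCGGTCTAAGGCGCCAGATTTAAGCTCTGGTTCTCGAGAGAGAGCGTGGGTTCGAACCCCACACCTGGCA
tRNA:Cys-GCA-1-3: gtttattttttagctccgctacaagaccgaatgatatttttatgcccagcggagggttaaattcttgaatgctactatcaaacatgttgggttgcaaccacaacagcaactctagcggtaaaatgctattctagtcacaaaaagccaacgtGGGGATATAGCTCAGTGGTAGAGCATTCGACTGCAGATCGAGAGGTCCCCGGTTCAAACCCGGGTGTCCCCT
Summit near tRNA:Tyr-GTA-1-8: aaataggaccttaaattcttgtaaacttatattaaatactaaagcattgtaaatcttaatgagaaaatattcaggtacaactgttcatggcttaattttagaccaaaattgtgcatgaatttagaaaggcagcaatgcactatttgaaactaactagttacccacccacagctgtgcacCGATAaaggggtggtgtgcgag
tRNA:Ser-AGA-2-4: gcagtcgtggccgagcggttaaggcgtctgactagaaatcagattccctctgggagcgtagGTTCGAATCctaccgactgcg

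In the IDR-thresholded list, 19 of 290 tRNA genes had a summit within 500 bp of the gene (6.55%, 95% Wilson interval 4.23 to 10.0). Their background is the 18.0% of all genes with a summit within 500 bp of the 5' end in that list, and tRNA genes measured in the same way, at the 5' end, stood at 6.21%, with 18 genes. Among other biotypes the share at the 5' end was 21.6% for protein_coding genes, 6.23% for other noncoding RNA genes and 4.46% for small nucleolar RNA genes. It was 18.8% for small nuclear RNA genes (6 of 32, 8.89 to 35.3), 2.99% for pseudogenes and 0 of 99 for rRNA genes. Short noncoding genes thus did not all have a low share. Of all 73-base windows of the arms, 3.88% lay within 500 bp of an IDR-thresholded summit. That value lies below the lower end of the interval for tRNA genes, which treats neighbouring genes as independent although they share summits.

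None of the IDR-thresholded summits lay inside a tRNA gene. The 19 genes shared 14 distinct summits, 84 to 479 bp from the nearest tRNA gene with a median of 206 bp, 8 of them upstream and 6 downstream of it. At the limit of 500 bp, the farthest gene inside it was tRNA:Gly-GCC-1-2 at 479 bp, and the next outside were tRNA:Ile-AAT-1-9 and tRNA:Glu-TTC-1-6 at 605 bp. The interval of a peak overlapped the gene itself for 5 genes, tRNA:His-GTG-1-3, tRNA:Glu-TTC-1-5, tRNA:Cys-GCA-1-2, tRNA:Cys-GCA-1-3 and tRNA:Thr-AGT-1-4. Of the 14 summits, 8 were intergenic, 5 lay in introns and 1 in an exon of a coding gene.

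**Figure D1:**
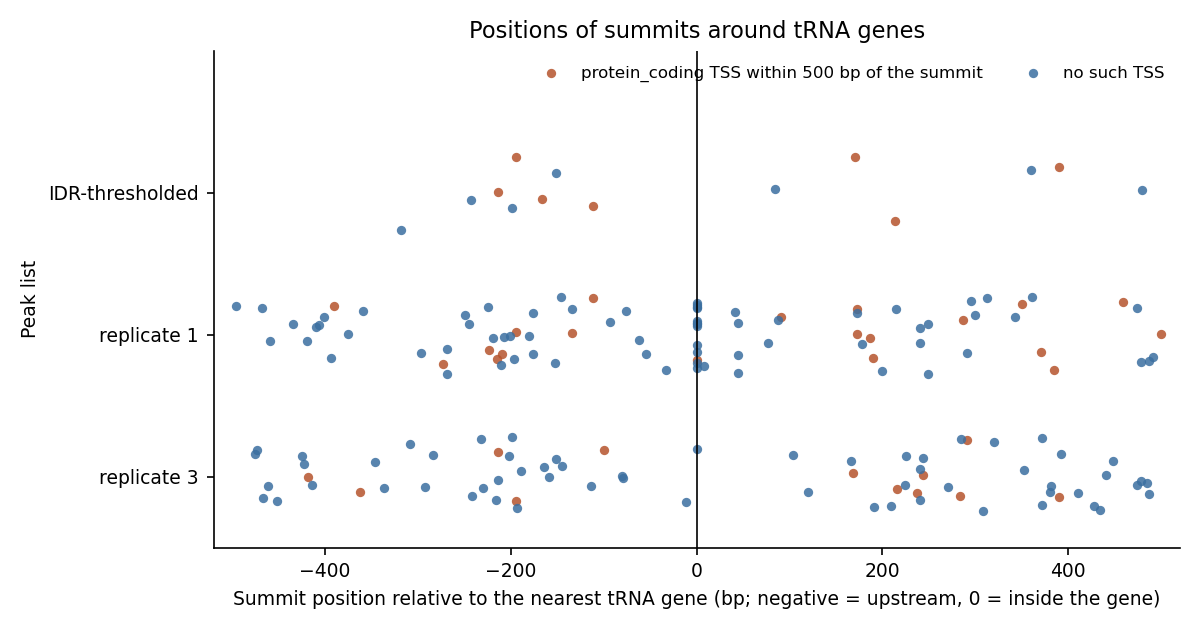
Position of each summit relative to its nearest tRNA gene (x axis, bp, negative upstream, 0 inside the gene) in the IDR-thresholded list and in the list of each replicate. Each point is 1 summit with a random vertical offset, in orange where a protein_coding TSS lies within 500 bp of it, and the replicate 1 list has 13 summits at 0 where replicate 3 has 1.

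A protein_coding transcription start site (TSS) lay within 500 bp of 7 of the 14 summits, and of 2509 of all 5038 IDR-thresholded summits (49.8%). The summits with such a TSS had a median rank of 1949 by signal, and the 7 without had a median rank of 3854. The signal is the value the authors deposited for each peak. Its scale is not given in the sources used here, and it orders peaks within 1 list only.

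The strongest summit lay 214 bp upstream of tRNA:Tyr-GTA-1-8, at 8669388 on 3R, with a signal of 1063 and rank 280. It was in an intron of CG8036 and of p, a gene of eye pigmentation, 230 bp upstream of a TSS of CG8036. In the replicates it ranked 384 (replicate 1) and 238 (replicate 3), so both placed it high, and their summits lay 10 and 0 bp from the pooled one. The next, at 6744301 on X (signal 511, rank 963), lay 170 bp downstream of tRNA:Phe-GAA-1-2 and 63 bp upstream of RpL17, the gene of a ribosomal protein, closer to that TSS than to the tRNA gene. Its ranks in replicates 1 and 3 were 1050 and 892. The third, at 8542046 on 2L (signal 469, rank 1105), lay 214 bp downstream of tRNA:Asp-GTC-1-5, 423 bp from its neighbour tRNA:Asp-GTC-1-4, and 101 bp upstream of Sema1a, which encodes a semaphorin of axon guidance. It ranked 1776 and 855 in replicates 1 and 3.

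The other 4 summits with a coding TSS nearby were weaker. At 24112769 on 3R, the summit 195 bp upstream of tRNA:Leu-TAA-2-1 (signal 309.6, rank 1949) lay 380 bp upstream of CG13605. At 12335232 on 2R, the summit 166 bp upstream of tRNA:His-GTG-1-3 (signal 282, rank 2211) lay 84 bp upstream of CG8490. The one near tRNA:His-GTG-1-3 ranked 1807 in replicate 1 and overlapped no peak of replicate 3, the only 1 of the 14 that was not in both lists. At 19671887 on 3R, the summit 390 bp downstream of tRNA:Val-CAC-2-5 (signal 278, rank 2251) lay in an intron of Naam, which encodes a nicotinamidase, 437 bp downstream of its TSS. At 16431828 on 3R, the summit 112 bp upstream of tRNA:Thr-AGT-1-4 (signal 149, rank 4348) lay in an intron of CG31279, with the TSS of that gene 369 bp downstream.

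The 7 summits away from coding TSSs were 1947 to 13300 bp from the nearest one. The strongest of them, at 20000567 on 2R (signal 289, rank 2135), lay between tRNA:Arg-CCT-1-2 and tRNA:Arg-CCT-1-3, 199 and 252 bp from the genes, with the nearest coding TSS, that of CG16898, 4436 bp away. It ranked 2662 in replicate 1 and 2044 in replicate 3, with summits 2 and 0 bp from the pooled one. At 3427766 on X, the summit 243 bp upstream of tRNA:Gln-TTG-2-1 (signal 254, rank 2496) lay in an intron of CG12535 and ranked 2323 and 2672 in replicates 1 and 3. The summit closest to a tRNA gene, 84 bp downstream of tRNA:Glu-TTC-1-5 at 19727376 on 2R (signal 189, rank 3442), was 13300 bp from a coding TSS. In replicate 3 its summit lay 224 bp from the pooled one, against 7 bp in replicate 1.

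The remaining 4 had ranks between 3854 and 4919. The summit at 3096218 on 3L (signal 165, rank 3958) lay in an intron of the chitinase gene Cht7. It was within 500 bp of 4 genes, tRNA:Cys-GCA-1-1, tRNA:Cys-GCA-1-2, tRNA:Cys-GCA-1-3 and tRNA:Lys-CTT-1-12, at 410, 156, 151 and 386 bp. It ranked 2708 in replicate 1 and 6712 in replicate 3. The others were near tRNA:Thr-AGT-1-2 (signal 169.6, in an exon of CG12831), tRNA:Gly-GCC-1-2 (signal 165, intergenic) and tRNA:Ala-TGC-2-1 (signal 132, intergenic), at 318, 479 and 360 bp. Of the 13 summits found in both replicates, 7 ranked higher in replicate 1 and 6 in replicate 3. All 14 were among the strongest 5038 peaks of replicate 1, and 10 were among those of replicate 3. The IDR threshold selects peaks by reproducibility between replicates, so their presence in both follows largely from that selection. The same shares over all 5038 IDR-thresholded peaks are not given here.

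**Figure D2:**
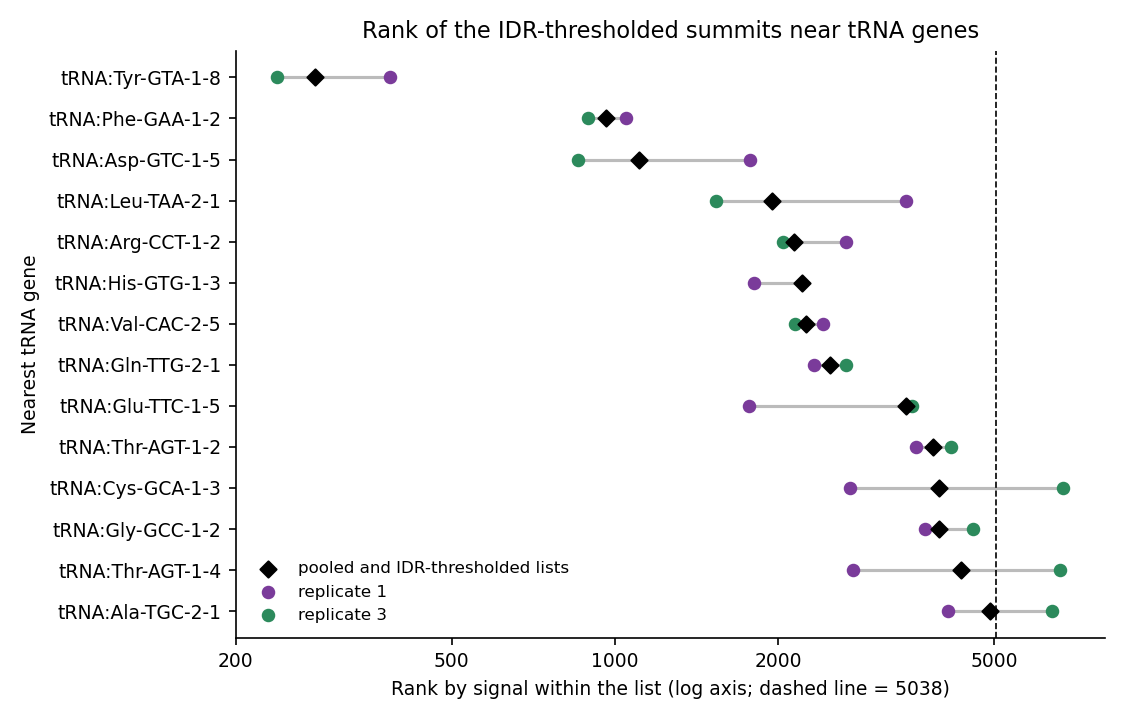
Rank by signal (x axis, log scale, 1 is the strongest) of the 14 IDR-thresholded summits near tRNA genes, each named on the y axis by its nearest tRNA gene. Diamonds give the rank in the pooled and IDR-thresholded lists, circles the rank in each replicate, and the dashed line marks rank 5038; the 3 circles to its right are all from replicate 3, and the row of tRNA:His-GTG-1-3 has no replicate 3 circle.

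**Figure D3:**
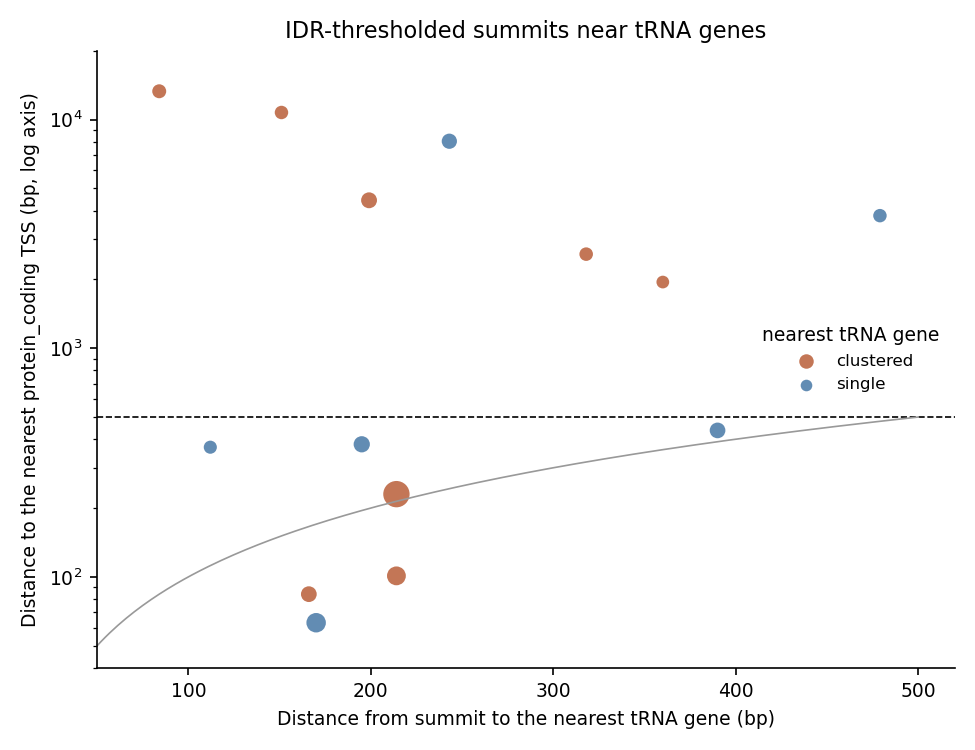
Distance of the 14 IDR-thresholded summits to the nearest tRNA gene (x axis, bp) and to the nearest protein_coding TSS (y axis, bp, log scale). The area of a point rises with its signal, the dashed line marks 500 bp and the grey curve marks equal distances; 7 points lie under the dashed line and 3 under the curve, nearer to the TSS than to the tRNA gene.

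The tRNA genes were also split by their own distance to the nearest coding TSS. Of 33 tRNA genes with a protein_coding TSS within 500 bp of the gene, 6 had an IDR-thresholded summit (18.2%, 8.61 to 34.4). Of 47 with the nearest one over 500 and at most 1000 bp away, 2 had a summit (4.26%, 1.17 to 14.2), and of 210 with none within 1000 bp, 11 had one (5.24%, 2.95 to 9.13). At the 5' end rather than the gene body, all genes stood at 18.0% and protein_coding genes at 21.6%. The interval of the 33 genes beside a coding TSS holds both values and is too wide to tell them apart. The intervals of the 3 classes overlap. An IDR-thresholded summit was found at 9 of 134 tRNA genes inside coding genes (6.72%) and at 10 of 156 outside them (6.41%).

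Clustered genes were compared with single ones. A gene was clustered where another tRNA gene lay within 5 kb, which held for 214 genes in 68 clusters of 2 to 11 genes, and 76 genes were single. In the IDR-thresholded list 13 of 214 clustered genes had a summit (6.07%, 3.58 to 10.1), against 6 of 76 single genes (7.89%, 3.67 to 16.2), and each interval holds the share of the other kind. With clusters joined at 1 kb instead, the order turned, with 7.03% of 185 clustered genes against 5.71% of 105 single genes. The 13 clustered genes shared 8 summits and lay in 8 of 68 clusters (11.8%, 6.08 to 21.5), against 6 of 76 single loci (7.89%). A coding TSS lay within 500 bp of 3 of the 8 summits at clustered genes, against 4 of the 6 at single genes.

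In the pooled and replicate 3 lists, clustered genes had a lower share than single genes, and their loci had a similar share. The full lists reach down to −log10 q values of 0.0461 (pooled), 0.0946 (replicate 1) and 0.0640 (replicate 3), per the deposited files. Their weaker peaks are thus not significant calls. In the pooled list 39 of 214 clustered genes had a summit (18.2%, 13.6 to 23.9), against 32 of 76 single genes (42.1%, 31.6 to 53.3). In replicate 3 the counts were 47 clustered (22.0%, 16.9 to 28.0) against 31 single genes (40.8%, 30.4 to 52.0). In replicate 1 they were 78 clustered (36.4%, 30.3 to 43.1) against 29 single genes (38.2%, 28.1 to 49.4), so the difference seen in replicate 3 was not seen in replicate 1. Counted by locus, 27 of 68 clusters had a summit in the pooled list (39.7%), against 32 of 76 single loci (42.1%). In replicate 3 these were 30 of 68 clusters (44.1%, 32.9 to 55.9), against 31 of 76 single loci (40.8%, 30.4 to 52.0). In replicate 1 they were 38 of 68 clusters (55.9%, 44.1 to 67.1), against 29 of 76 single loci (38.2%, 28.1 to 49.4). A cluster spans more sequence than a single gene, and genes of a cluster are not independent, so these shares are given without a test.

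**Figure D4:**
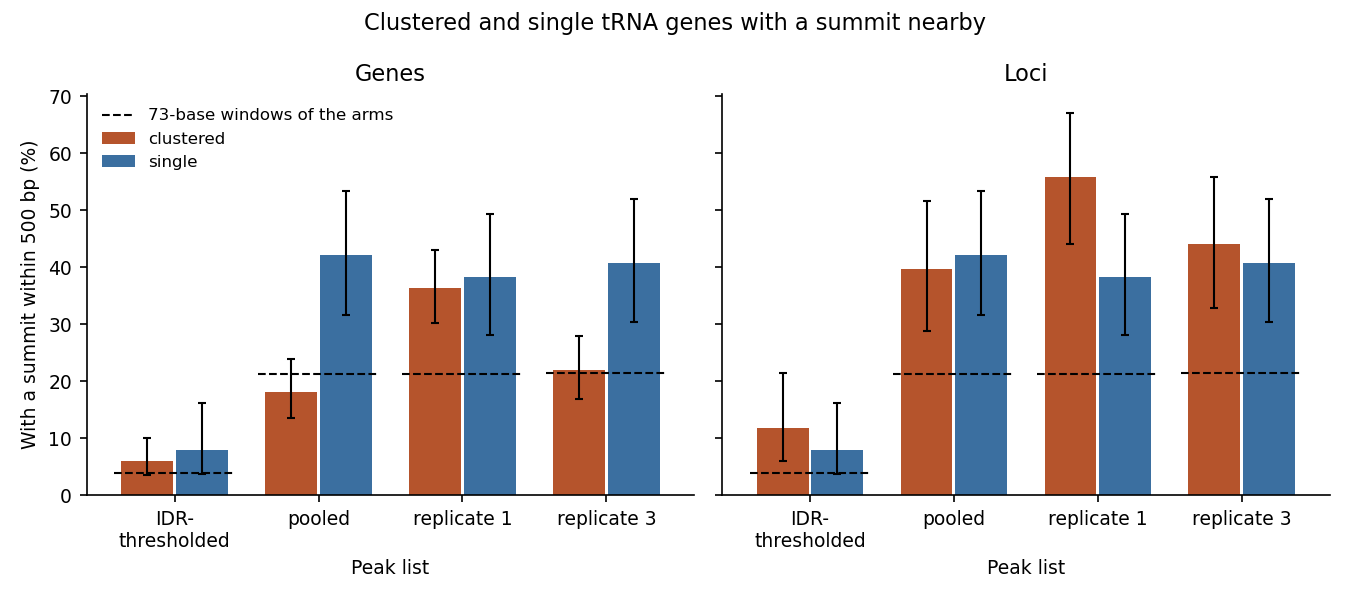
Share with a summit within 500 bp (y axis, %) of clustered (orange) and single (blue) tRNA genes, by gene on the left and by locus on the right, in each of the 4 peak lists. Error bars are 95% Wilson intervals and dashed lines give the share of all 73-base windows of the arms; single genes stand at 42.1% and 40.8% in the pooled and replicate 3 lists, against 18.2% and 22.0% of clustered genes.

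The full lists widened the count to 71 of 290 tRNA genes in the pooled list (24.5%, 19.9 to 29.7), against 40.6% of all genes at the 5' end and 21.3% of 73-base windows. Replicate 1 had 107 (36.9%, 31.5 to 42.6), against 45.0% of all genes and 21.2% of windows. Replicate 3 had 78 (26.9%, 22.1 to 32.3), against 38.2% of all genes and 21.4% of windows. The pooled interval thus held the share of windows, that of replicate 3 began just above it, and that of replicate 1 lay well above it. In the pooled list 69 summits accounted for the 71 genes, and 12 of them (17.4%) lay within 500 bp of a coding TSS, against 23.5% of all pooled summits. For replicate 1 it was 20 of 90 (22.2%), against 26.4% of all its summits, and for replicate 3 it was 12 of 72 (16.7%), against 21.8%.

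Both replicates had a summit near 51 of the 290 genes (17.6%, 13.6 to 22.4), replicate 1 alone near 56 (19.3%), replicate 3 alone near 27 (9.31%) and neither near 156. Of all 73-base windows, 11.6% lay within 500 bp of a summit in both replicates, 9.61% in replicate 1 alone and 9.86% in replicate 3 alone. Measured at the 5' end, both replicates reached 48 tRNA genes (16.6%), against 30.2% of all genes. At the 5' end replicate 1 alone reached 18.3% of tRNA genes, against 14.8% of all genes, and replicate 3 alone 7.93%, against 8.03%. Of the 19 genes of the IDR-thresholded list, 18 were among the 51, which the selection by IDR favours. The 51 comprised 30 clustered genes (14.0% of 214, 10.0 to 19.3), against 21 single genes (27.6% of 76, 18.8 to 38.6). Of the 56 genes found in replicate 1 alone, 48 were clustered, against 17 of the 27 found in replicate 3 alone. Among all 290 genes 214 were clustered, and genes of a cluster can share a summit. The median rank of the strongest summit at these genes was 14378 in replicate 1 alone and 20983 in replicate 3 alone, among 30000 peaks, so most lay in the middle or lower part of each list. At the 51 shared genes the medians were 8670 in replicate 1 and 9161 in replicate 3.

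The replicates also differed next to and inside the genes. In replicate 1, 13 summits lay inside tRNA genes, all at clustered genes, and 26 genes had a summit inside or within 100 bp. These were 4.48% and 8.97% of the 290 genes, against 1.64% and 6.05% of all 73-base windows. In replicate 3, 1 summit lay inside a tRNA gene, the single gene tRNA:Arg-TCT-3-1, and 6 genes had one inside or within 100 bp. These were 0.345% and 2.07% of the 290, against the same shares of windows, 1.64% and 6.05%. Clustered genes with a summit within 100 bp numbered 24 of 214 (11.2%) in replicate 1 and 4 of 214 (1.87%) in replicate 3, while single genes numbered 2 of 76 (2.63%) in each. None of the 13 summits was among the strongest 5038 peaks of replicate 1. They ranked 6813 to 29742, with tRNA:Ser-AGA-2-4 (signal 38.8), tRNA:Glu-TTC-1-2 (31.6) and tRNA:Glu-TTC-1-1 (29.1) the strongest. The −log10 q values of these 3 were 2.04, 1.24 and 1.01, and that of the weakest, in tRNA:Ser-GCT-1-1, was 0.0966. At the strongest 5038 peaks of each replicate the counts were closer, 22 tRNA genes (7.59%, 5.06 to 11.2) in replicate 1 and 16 (5.52%, 3.42 to 8.77) in replicate 3. The windows stood at 3.88% in each, which only the interval of replicate 3 held, and all genes at the 5' end stood at 20.4% and 16.4%. Genes with an identical copy elsewhere had a summit in 87 of 238 cases in replicate 1 (36.6%), against 20 of 52 genes with a sequence of their own (38.5%). In replicate 3 these were 58 of 238 (24.4%, 19.4 to 30.2), against 20 of 52 (38.5%, 26.5 to 52.0). The part of read placement in this difference between the replicates was not tested.

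Below the IDR threshold, 55 pooled summits lay near tRNA genes, and 27 of them overlapped a peak in both replicates. The share over all pooled peaks below the threshold is not given here, so this count cannot be read as high or low. The strongest lay 392 bp upstream of tRNA:Val-CAC-1-1 (signal 127, rank 5110), 209 bp downstream of tRNA:Lys-TTT-1-1 (signal 122, rank 5359) and 410 bp upstream of tRNA:Gly-GCC-1-4 (signal 119.7, rank 5442). Next came the summits 193 bp upstream of tRNA:Phe-GAA-1-3 (signal 102, rank 6386) and 214 bp upstream of tRNA:Ala-AGC-2-8 (signal 99.9, rank 6524). None of these 5 had a coding TSS within 500 bp, with the nearest 710 to 27365 bp away.

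The 5 largest clusters held 7 or 11 genes each. The cluster of 11 genes for Arg, Asn, Ile and Lys tRNAs (6161535 to 6171759 on 2R), 8 of them inside EcR, the ecdysone receptor gene, had none within 500 bp in any of the 4 lists. Its nearest summit lay 3499 bp away in the pooled list. The other cluster of 11, with genes for Ala, Pro, Thr and Val tRNAs (17617761 to 17631750 on 3R), had none in the IDR-thresholded list. It had 4 genes with a summit in the pooled list, 3 in replicate 1 and 5 in replicate 3. Of these, tRNA:Val-CAC-1-1 was found in both replicates, tRNA:Ala-AGC-2-5 and tRNA:Pro-TGG-1-3 in replicate 1 alone, and tRNA:Pro-TGG-1-1, tRNA:Ala-AGC-2-2, tRNA:Pro-TGG-1-2 and tRNA:Ala-AGC-2-3 in replicate 3 alone.

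Clusters of 7 genes numbered 3. In the one for Glu and initiator Met tRNAs (19725620 to 19728958 on 2R), tRNA:Glu-TTC-1-5 carried the IDR-thresholded summit described above, and tRNA:Glu-TTC-1-6 and tRNA:Glu-CTC-2-1 had a weak one in replicate 1 only (signal 15.4, rank 27891). In the one for Ile and Leu tRNAs inside ATP8A (13430282 to 13432794 on 2R), tRNA:Ile-AAT-1-3 had a summit in the pooled list (signal 78.7, rank 8493) and in both replicates. There, tRNA:Leu-CAA-2-1, tRNA:Ile-AAT-1-4 and tRNA:Ile-AAT-1-5 had one in replicate 1 only (signal 24.8, rank 12274). In the one for Arg and Ser tRNAs (14014814 to 14017284 on X), tRNA:Arg-TCG-2-1 had one in the pooled list (signal 38.8, rank 27535) and in replicate 3.

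By the amino acid they carry, the genes fell into 22 groups, with the initiator of translation (iMet) and selenocysteine (SeC) counted apart. Of these, 14 groups had at least 1 gene with an IDR-thresholded summit. Cys had the most, 3 of 7 genes, all from the summit in Cht7, followed by Arg (2 of 26), Asp (2 of 14) and Thr (2 of 17). Groups with none were Ser (20 genes), Pro (17), Ile (11), Asn (10), Trp (8), Met (6), iMet (6) and SeC (1). Asn was the group with no summit in any list, 0 of 10 genes. Of these 10, 3 lie in the cluster that begins inside EcR and 3 in another cluster inside EcR (6152603 to 6153579 on 2R). A further 2 lie in a cluster on the same arm (6190129 to 6190445), so these genes are not independent cases. By arm, the IDR-thresholded counts were 3 of 41 on 2L, 6 of 98 on 2R, 4 of 48 on 3L, 4 of 79 on 3R and 2 of 24 on X.

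**Figure D5:**
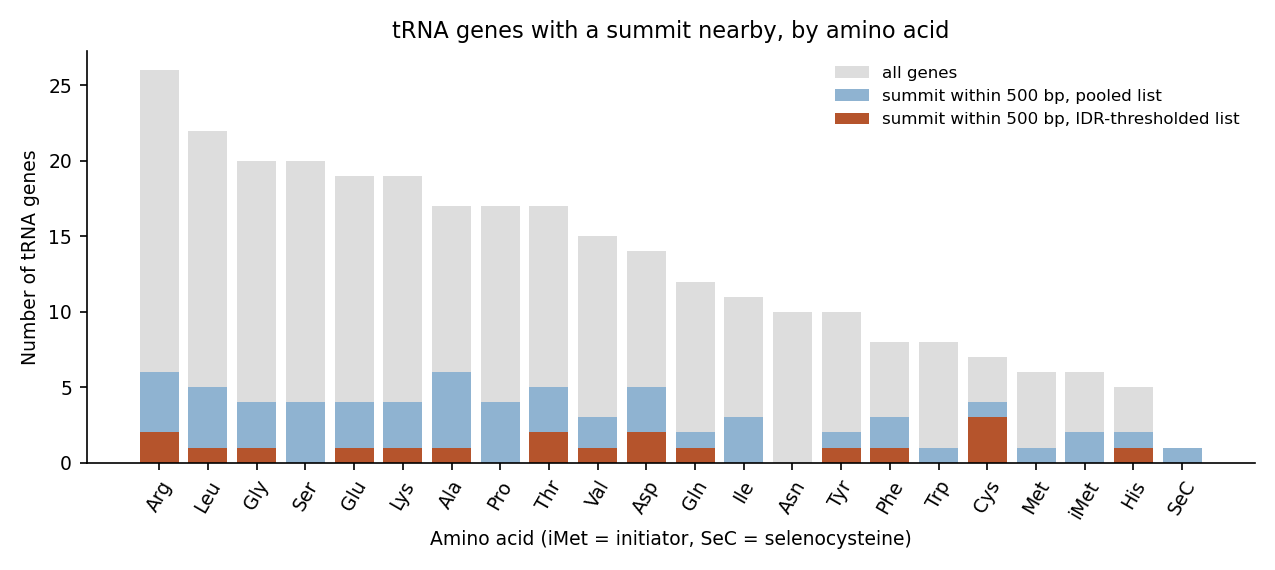
Number of tRNA genes (y axis) by amino acid (x axis): all genes in grey, with a summit within 500 bp in the pooled list in blue, and in the IDR-thresholded list in orange, drawn over one another from 0. Cys shows the tallest orange bar, 3 of 7 genes, and Asn shows grey only, 0 of 10.

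The DNA under the 14 summits was searched on both strands of windows reaching 100 bp to either side, beside the same windows at all 5038 IDR-thresholded summits. The B box core GTTCNANNC occurred in 1 of 14 windows (7.14%, against 6.13% of all). With summits 84 to 479 bp from the nearest tRNA gene, no window held a whole tRNA gene. The count thus does not bear on the B boxes inside the genes. The match lay in the window of the summit 166 bp from tRNA:His-GTG-1-3, outside that gene. That window also held TATCGATA, the element bound by Dref (1 of 14, 7.14%, against 4.29% of all). The shorter CGATA, part of that element and the sequence bound by the insulator protein BEAF-32, occurred in 3 of 14 (21.4%, against 31.2%). GGTCACACT, bound by M1BP, was in 0 of 14 (against 1.57%), and GAGAG, bound by the GAGA factor, in 2 of 14 (14.3%, against 19.6%). TATAAA was in 6 of 14 (42.9%, against 38.5%) and TTTTT in 12 of 14 (85.7%, against 81.1%). With 14 windows, 1 match is 7.14% of them, and a match does not show binding.

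Genes that act on tRNA genes and their transcripts were counted in the same list, at their TSSs. Of 43 genes named for RNA polymerase III, its factors and tRNA processing, 36 were matched to the annotation, and 15 of the 36 had a summit no farther than 500 bp from a TSS (41.7%, 27.1 to 57.8), against 23.7% of all protein_coding genes. The strongest lay at Brf (signal 1648, rank 105), which encodes a subunit of factor IIIB, and Bdp1, which encodes another, had a signal of 1368 and rank 167. Among polymerase subunits, Polr3E (signal 934), Polr3D (251), Polr3F (139) and Polr1D, which RNA polymerases I and III share (331), had one. Polr3A, Polr3B, Polr3C, Polr3G, Polr3I, Polr3K and Polr1C had none, and neither had Trf, Tbp or Maf1, whose protein represses RNA polymerase III. Further genes with one were CG7099 (signal 1510.0), l(2)37Cd (557), CG8950 (212), La, whose protein binds the ends of new RNA polymerase III transcripts (210.2), and RNaseZ, which trims the 3' end of tRNAs (351). The tRNA methyltransferase genes Trm7-32 (200.0), Trm7-34 (171) and Nsun2 (140.5) also had one.

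Other genes read by RNA polymerase III were matched in 7 of 9 cases. Of these, snRNA:U6:96Ab and snRNA:U6:96Ac, genes of a spliceosomal RNA, shared 1 IDR-thresholded summit (signal 226, rank 2824) at 286 and 131 bp. The other 5, snRNA:U6:96Aa, RNaseP:RNA, RNaseMRP:RNA and both 7SL RNA genes, had none. None of the 100 genes named for 5S ribosomal RNA, 4 of them annotated pseudogenes, had a summit within 500 bp in that list. All 100 lie on the same chromosome arm, so they cannot be taken as 100 independent cases. Genes of biotype rRNA, measured at the 5' end, also had none in the pooled list or in either replicate list (0 of 99 in each). Whether short reads can be placed at these genes was not tested, so the absence of a summit cannot be read as absence of binding.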

How the data were processed

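Peaks came from 2 biological replicates of 1 group. Per the labels, sonication cut the chromatin into pieces of 200 to 800 bp. Per the deposited notes, peaks in dm6 were derived from each replicate's alignment, or from both alignments for the pooled list, together with a control file, and the IDR-thresholded list was derived from these lists. The peak caller is not given in the sources used here. The deposited lists give a signal per peak, used only for ranking within a list. They also give a −log10 q value (2.45 to 3.81 in the IDR-thresholded list, per the deposited file). It was used for description only and not to select or rank peaks. Depth per replicate is unknown, and equal list lengths say nothing of it.

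Genes came from Ensembl release 115 (BDGP 6.54) and sequence from the RefSeq release 6 assembly. Distances ran from the summit to the gene body, or to the 5' end or TSS where stated, with 1-based coordinates. A replicate peak matched a pooled one where the intervals overlapped. Replicate counts were also made on the 5038 strongest peaks of each. Counts were made with pandas 2.3.3, numpy 2.4.6 and scipy 1.17.1 under Python 3.11.15, figures with matplotlib 3.10.9, and the counting was tested on simulated data. Intervals are 95% Wilson intervals, which cover counting error over genes that are not independent; no significance test was made.

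The members, gene lists and distances were chosen with earlier results of these data known. Named tRNA genes are those with an IDR-thresholded summit, those in the largest clusters with a summit in any list (the third place was tied, so 5 clusters are given), and those at the 5 strongest pooled summits below the IDR threshold. The strongest replicate 1 summits inside tRNA genes were named after their values were seen, as were the summit inside tRNA:Arg-TCT-3-1 and the nearest genes outside the distance limit, such as tRNA:Ile-AAT-1-9. Of the genes of RNA polymerase III counted, 1 is not reported here by name.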

Additional observations from a re-analysis of the deposited data

How the results depend on the processing

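The number of tRNA genes with an IDR-thresholded summit (19) was 16 without replicate 1 and 22 without replicate 3, with the strongest 5038 peaks of the other replicate in place of the list, and 18 at the 5' end. It was 11 at 250 bp, 35 at 1000 bp, 10 with only the peaks of above-median signal, 5 where the peak had to overlap the gene, and 71 with all pooled peaks. The clustered count (13) was 7, 25, 6 and 4 under the first 4 of these, and 9 to 16 with a replicate left out. The single count (6) was 10 at 1000 bp, 1 with an overlap required, and 6 to 7 with a replicate left out. Joining clusters at 1 kb turned the direction of the IDR-thresholded shares, 7.03% of 185 clustered genes against 5.71% of 105 single genes, and at 10 kb they were 6.19% of 226 against 7.81% of 64. At 1 kb replicate 1 also turned, 38.4% clustered against 34.3% single, while replicate 3 had 23.2% against 33.3% and the pooled list 18.9% against 34.3%. At 10 kb these lists had 35.8% against 40.6%, 23.0% against 40.6% and 19.0% against 43.8%. Summits with a coding TSS nearby (7 of 14) numbered 12 of 24 at 1000 bp from the gene, 2 of 4 with an overlap required, 4 of 14 with the TSS within 250 bp, and 6 to 8 with a replicate left out. Genes found in both replicates (51) numbered 12 among the strongest peaks, 23 at 250 bp and 93 at 1000 bp, and 35 to 41 where the summits had to lie within 100 bp of each other or the peaks to overlap by 50% reciprocally. Fewer peaks, shorter distances or an overlap admit fewer genes by construction. Of 40 alternatives, 23 stayed within 1.5 times the reported count. Peaks alone give no depth, so a gene without a summit may lie under the threshold of its list.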
